A study of Solanum lycopersicum with 9 samples.

Results

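Ethylene response factors (ERFs) of tomato were followed through 4 stages of fruit ripening. The genes were found by name: a probe set belonged to the family when its gene symbol on the array began with ERF or JERF or was Pti4, Pti5 or Pti6, and ERF.B3 was added through its RefSeq synonym. This gave 6 genes with 7 probe sets, out of 67795 probe sets on the array, of which 23194 carry 1 gene symbol and represent 21322 genes. The genes are ERF1, ERF2, ERF4, ERF5, ERF7 and JERF1, and ERF4 is the gene that RefSeq lists as ERF.B3. No probe set carried the symbol Pti4, Pti5 or Pti6. RefSeq names 64 tomato genes with an ERF, JERF or Pti name among their symbols and synonyms, and 7 of these had a probe set under their own symbol, namely 5 of the 6 genes and DREB1 and DREB3. The 6 genes thus stand for a small part of the family. 5 of the 6 were found in RefSeq by symbol. ERF1 was not, and 2 RefSeq genes carry ERF1 as a synonym (ERF-A2 and ERF-H1). The supplement of the study also lists ERF.C1 under the NCBI name ERF1. In the supplement, probe set identifiers are grouped by chromosome. Those of the 2 ERF1 probe sets lie among genes of chromosomes 5 (near ERF4) and 6 (near JERF1). ERF.C1 is on chromosome 5 and ERF-H1 on chromosome 6, so the 2 probe sets probably read different genes. Which gene each reads was not checked by sequence. A gene with several probe sets is represented by the one with the higher mean signal.

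Ethylene drives the ripening of climacteric fruits such as tomato. The hormone is made by ACC synthases and ACC oxidases, is sensed by receptors that keep the pathway shut in its absence, and acts through EIN2 and the EIN3-like (EIL) transcription factors, which switch on genes of ERFs. ERFs belong to the AP2/ERF superfamily of plant transcription factors and bind the GCC box in the promoters of ethylene-responsive genes, where some members activate and others repress transcription. The letter in names such as ERF.B3 or ERF.E1 is the subclass of the protein within the tomato family.

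The arrays were Affymetrix TomGene ST 1.1 strips hybridized with RNA of wild type fruit, labelled as pericarp, of the cultivar Ailsa Craig at breaker (2 arrays), turning (2), pink (2) and red ripe (3). Breaker is the stage at which the green fruit first changes colour, and the plants were greenhouse-grown in hydroponic culture without a treatment. Values are log2 signals obtained by the authors with the RMA method, so a difference of 1 is a 2-fold change, and the number of arrays limits the precision of each value. limma fitted the 4 stage means jointly on the 9 arrays, Benjamini-Hochberg adjustment ran over the whole array, and a gene was counted as risen or fallen at an adjusted p under 0.05 together with a fold change over 2. The methods speak of independent biological replicates but name 2 per stage, and the labels do not say how samples were kept separate. A p-value here measures only the scatter among the samples of a stage, which may in part be technical. In bulk tissue, fewer cells of a type and less RNA per cell cannot be told apart.

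The median signal over all probe sets was 1.78 to 2.01 on the 9 arrays, and a signal near that level cannot be told from background because no detection calls were used. Replicates correlated with r = 0.939 at turning, 0.957 at pink, 0.983 to 0.991 at red ripe and 0.988 at breaker, and limma's array weights, lower for noisier arrays, came to 0.40 for turning, 0.57 for pink, 0.90 to 2.11 for red ripe and 2.21 for breaker. The pooled standard errors can thus be too small for turning and pink. Of 7 markers of ripening flesh 4 were matched: the polygalacturonase PG2 had a mean signal of 9.30 to 11.3 over the stages and the phytoene synthase PSY1 8.29 to 10.2, while the ACC oxidase ACO1 lay at 1.45 to 1.71 at every stage. The expansin EXP1 had a mean signal of 4.97 at red ripe and 4.72 at breaker but lay below the array medians at both middle stages (1.58 in turning fruit and 1.34 in pink fruit). The methods also mention abscission zones in 1 sentence. Of 8 marker genes of that tissue 5 were matched and 4 of these had stage means of at most 2.42, while CEL1 lay between 3.04 and 6.08. Of 5 markers of epidermis and cuticle 3 were matched (CHS1, CHS2 and CD2), and of 6 markers of green tissue none.

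Among the 6 genes, ERF4 changed by far the most between stages, and ERF7 the least. Stage means spanned 5.61 on the log2 scale for ERF4, 3.69 for ERF5, 2.23 for ERF1, 2.00 for JERF1, 1.56 for ERF2 and 0.73 for ERF7. Red ripe was the stage of the highest mean for ERF1, ERF2, ERF4 and ERF5, breaker for JERF1 and pink for ERF7. Turning was the lowest stage of ERF4, ERF5 and JERF1, pink that of ERF1 and ERF2, and red ripe that of ERF7.

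**Figure D1:**
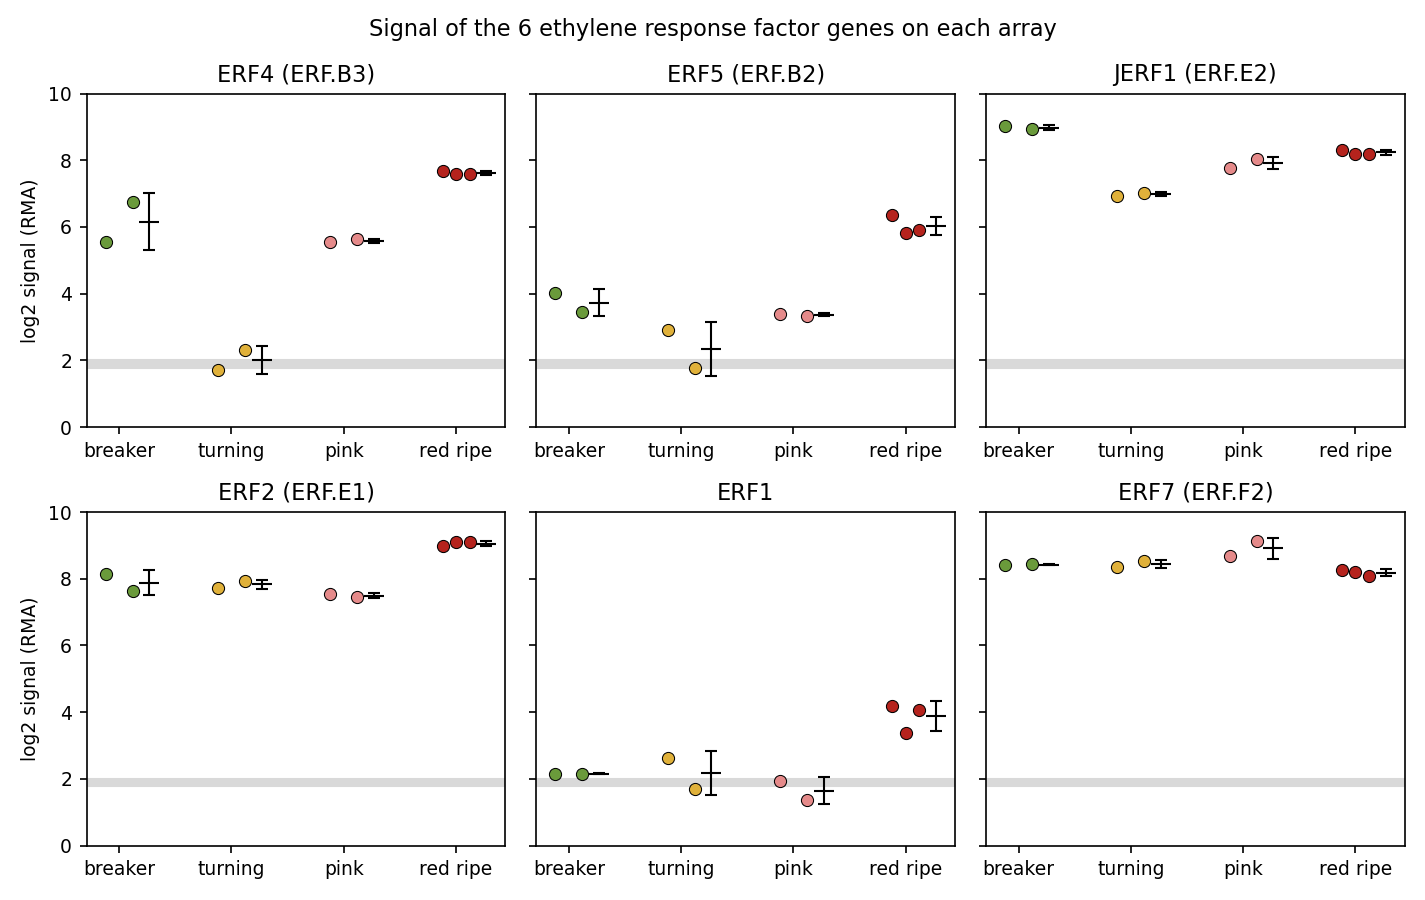
Each point is the log2 RMA signal of 1 array, by ripening stage on the horizontal axis, and the bar beside the points is the stage mean with its SD (n = 2 at breaker, turning and pink, n = 3 at red ripe). The grey band is the range of the median signal of all probe sets on the 9 arrays, 1.78 to 2.01. ERF4 lies on both sides of the band at turning, ERF1 lies near it at all stages before red ripe, and ERF7 stays between 8.08 and 9.14.

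ERF4 (ERF.B3) encodes an activator of subclass B, and a dominant repressor form of it disturbs the onset of ripening in transgenic tomato. Its log2 signal was 5.56 and 6.76 on the breaker arrays, 1.71 and 2.31 at turning, 5.55 and 5.63 at pink, and 7.69, 7.60 and 7.58 at red ripe. The turning arrays lay below all others, the pink arrays lay at the level of the lower breaker array, and the red ripe arrays lay above all others. At turning the gene fell by 4.15 against breaker (standard error 0.35, adjusted p = 1.64e-04). From turning it was higher by 3.58 at pink (adjusted p = 0.0020) and by 5.61 at red ripe (adjusted p = 1.14e-05), and it was 2.03 higher at red ripe than at pink (adjusted p = 0.00258). The turning signal was close to the array median, so these differences from turning are at best lower bounds. The difference between pink and breaker was -0.57 (95% interval -1.36 to 0.22) and was not past the test. Red ripe was 1.46 above breaker (standard error 0.32, adjusted p = 0.0391), with 3 of 3 red ripe arrays above both breaker arrays.

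The breaker arrays of ERF4 differed from each other by more than any other pair of replicates of the gene. Without breaker replicate 1, the lower of the pair, the red ripe change was 0.86 (adjusted p = 0.195) and the pink change was -1.17 (adjusted p = 0.0435), whereas without breaker replicate 2 the pink change was 0.03. The red ripe call was also lost without any 1 of the pink arrays (adjusted p = 0.0642 for each) or of the 3 red ripe arrays (0.139, 0.130 and 0.0863 without replicate 1, 2 and 3), while the call at turning held without any 1 array.

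ERF5 (ERF.B2), the second member of subclass B, is known for a role in tolerance to drought and salt. It had signals of 4.02 and 3.44 at breaker, 2.92 and 1.76 at turning, 3.40 and 3.34 at pink, and 6.35, 5.82 and 5.92 at red ripe. The 3 red ripe arrays lay at least 1.80 above any earlier array, and the turning arrays lay below both breaker arrays but were the least alike. ERF5 rose by 2.30 at red ripe against breaker (standard error 0.33, adjusted p = 0.00557), by 2.66 against pink (adjusted p = 7.46e-04) and by 3.69 against turning (adjusted p = 1.05e-04). Its fall by 1.39 at turning against breaker was just past the test (standard error 0.36, adjusted p = 0.0375). The lower turning array (1.76) lay below the array medians, so the differences of ERF5 from turning may be lower bounds. The difference at pink was -0.36 from breaker (95% interval -1.18 to 0.46) and 1.03 from turning (adjusted p = 0.228), neither past the test.

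The fall of ERF5 at turning did not hold without breaker replicate 1 or 2 (adjusted p = 0.229 and 0.0726), turning replicate 2 (0.0970), either pink array (0.0551) or any 1 red ripe array (0.0521 to 0.0600), nor after quantile normalization (0.118), with array weights (0.0774) or with the arrays of the 2 stages alone (0.158). The rise at red ripe had an adjusted p of 0.0713 without breaker replicate 2, and without turning replicate 1 the step from turning to pink was 1.61 (adjusted p = 0.0354).

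JERF1 (ERF.E2), named as a jasmonate and ethylene response factor, was the 1 member whose breaker arrays were the highest of all. Its signals were 9.03 and 8.93 at breaker, 6.94 and 7.02 at turning, 7.78 and 8.05 at pink, and 8.32, 8.19 and 8.20 at red ripe. No stages overlapped, and the order was turning, pink, red ripe, breaker. The gene fell by 2.00 at turning, a signal 4-fold lower than at breaker (standard error 0.15, adjusted p = 9.12e-05), and by 1.06 at pink (standard error 0.15, adjusted p = 0.00227). Its level at red ripe was 1.26 above turning (adjusted p = 2.76e-04) and 0.74 below breaker. The difference from breaker had an adjusted p of 0.0175 but a fold change under 2. Pink exceeded turning by 0.94 with an adjusted p of 0.0169, again under 2-fold, and red ripe did not differ from pink beyond the threshold (0.32, 95% interval 0.01 to 0.63). The difference at pink from breaker lies close to the limit on fold change and was -0.93 without pink replicate 1 (adjusted p = 0.0118) and -0.96 after quantile normalization.

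ERF2 (ERF.E1), the second member of subclass E, passed the test in the comparisons with red ripe, where it was higher, and in no others. Its signals were 8.15 and 7.62 at breaker, 7.73 and 7.93 at turning, 7.55 and 7.44 at pink, and 8.97, 9.09 and 9.10 at red ripe. All 3 red ripe arrays lay above every other array, and the turning arrays lay between the breaker arrays. Red ripe was higher than breaker by 1.17 (standard error 0.17, adjusted p = 0.0064), than turning by 1.22 (adjusted p = 0.00125) and than pink by 1.56 (adjusted p = 4.03e-04). Turning differed from breaker by -0.06 (95% interval -0.49 to 0.38) and pink by -0.39 (-0.82 to 0.04). Without breaker replicate 2, the rise against breaker was 0.90 (adjusted p = 0.0663).

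ERF1 was near background until pink. The probe set with the higher mean read 2.16 and 2.14 at breaker, 2.64 and 1.71 at turning, 1.94 and 1.36 at pink, and 4.20, 3.37 and 4.06 at red ripe. Only the red ripe arrays stood clear of the array medians, by more than 1. ERF1 rose at red ripe by 1.73 against breaker (standard error 0.33, adjusted p = 0.0221), by 1.70 against turning (adjusted p = 0.00678) and by 2.23 against pink (adjusted p = 0.00195), differences that are at best lower bounds. The second ERF1 probe set had stage means between 1.29 (pink) and 1.87 (red ripe), near the array medians or below. Its change at red ripe against breaker was 0.18 (adjusted p = 0.916). The probe sets thus differed, but they probably read different genes, in which case their mean does not describe 1 gene. With the mean of both, the change was 0.95 against breaker and 0.98 against turning, and both calls were lost on fold change, while the change against pink was smaller and still past the test (adjusted p = 0.0013). The call against breaker was also lost without breaker replicate 1 or 2 (adjusted p = 0.140 and 0.162) and without red ripe replicate 1 or 3 (0.0915 and 0.0656).

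ERF7 (ERF.F2) belongs to subclass F, whose members carry a repression motif. It read 8.42 and 8.43 at breaker, 8.36 and 8.53 at turning, 8.69 and 9.14 at pink, and 8.27, 8.20 and 8.08 at red ripe. The pink arrays were the highest and the red ripe arrays the lowest, the reverse of ERF2. None of the 6 comparisons passed the fold threshold. Red ripe was 0.73 below pink with an adjusted p of 0.0151, and turning differed from breaker by 0.02 (95% interval -0.38 to 0.42), so that a change over 2-fold between those stages lies outside the interval.

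**Figure D2:**
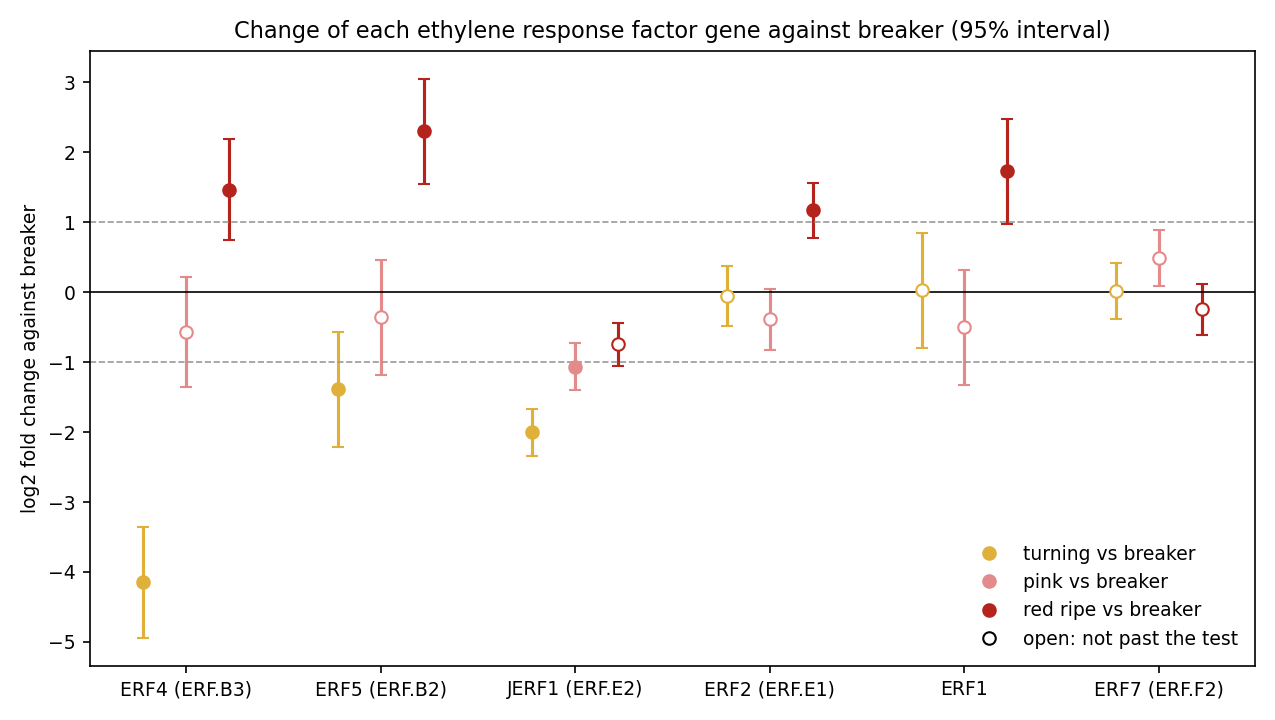
The log2 fold change of each gene at turning, pink and red ripe against breaker (vertical axis), with its 95% interval from limma. Filled points passed an adjusted p under 0.05 with a fold change over 2, whose limits are the dashed lines. At red ripe 4 points are filled above 0, and at turning 3 are filled below 0.

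Counted over the 6 genes, the calls against breaker were falls at turning and pink and rises at red ripe. At turning 3 fell (ERF4, JERF1 and ERF5) and none rose against breaker, where 6.80% of all probe sets and 16.5% of those with 1 gene symbol fell and 1.46% of all rose. At pink 1 fell (JERF1) and none rose, where 5.53% of all probe sets and 13.5% of those with 1 gene symbol fell and 1.25% of all rose. At red ripe 4 rose (ERF5, ERF1, ERF4 and ERF2) and none fell, where 1.49% of all probe sets and 3.54% of those with 1 gene symbol rose and 1.24% of all fell. The median log2 fold change of the 6 genes was -0.72 at turning, -0.44 for pink and 1.32 for red ripe, beside 0.12, 0.08 and 0.01 for all probe sets and -0.11, -0.09 and 0.05 for those with 1 gene symbol. At an unadjusted p under 0.05 in limma, whatever the fold change, 0 of the 6 genes were higher at turning, 1 was higher at pink (ERF7) and 1 was lower at red ripe (JERF1). These 3 comparisons share the breaker arrays, and their results are not independent of one another.

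Other values moved with these counts. The 90th percentile of the signal, which marks the brighter probe sets, was 4.17 to 4.51 on the turning arrays, 4.40 to 4.55 on the pink arrays, 5.24 to 5.43 on the red ripe arrays and 5.09 to 5.15 on the breaker arrays, so all arrays of the 2 middle stages had a narrower range of signal. At turning, where ERF4, ERF5 and JERF1 fell, CEL1 was the 1 of 5 abscission zone markers that passed the test (-3.03, adjusted p = 0.00508), and of the epidermis markers CHS1 fell by 3.64 (adjusted p = 2.63e-04) and CD2 rose by 1.86 (adjusted p = 1.14e-04). At red ripe, where 4 ERF genes rose, all 3 matched epidermis markers fell, CHS1 by 4.05, CHS2 by 2.42 and CD2 by 1.54 (adjusted p = 1.67e-04, 4.04e-05 and 3.23e-04). The red ripe mean of CHS1 (1.95) lay near the array medians, so its fall is at best a lower bound. The part of these differences in the ERF results was not tested.

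The count at red ripe depended on single arrays. It was 2 without breaker replicate 1, 1 without breaker replicate 2, 2 without red ripe replicate 1 and 2 without red ripe replicate 3, and 2 after quantile normalization of the deposited values, with ERF1 and ERF4 below the threshold there. At turning 3 fell without turning replicate 1 and 2 without any other 1 array. At pink the count was 0 without pink replicate 1, 2 without breaker replicate 1 and 0 after quantile normalization.

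The steps between later stages do not use the breaker arrays. From turning to pink 1 gene rose (ERF4) and none fell, where 1.12% of all probe sets and 2.27% of those with 1 symbol rose and 0.532% of all fell. The number was 2 without turning replicate 1 or without pink replicate 1. With array weights ERF4 did not pass that step (adjusted p = 0.0747). From pink to red ripe 4 rose (ERF1, ERF2, ERF4 and ERF5), where 7.76% of all probe sets and 19.2% of those with 1 symbol rose and 1.32% of all fell. This count was 4 without any 1 of the 9 arrays and after quantile normalization. Between turning and red ripe all except ERF7 rose, 5 of 6 genes, where 9.16% of all probe sets and 22.4% of those with 1 symbol rose and 1.92% of all fell. That count was 5 without any 1 array and 3 after quantile normalization, when ERF2 (0.99) and JERF1 (0.83) were under the fold threshold. It was 4 with the mean of both ERF1 probe sets, a mean that probably does not describe 1 gene. The high shares of rising probe sets in these 2 comparisons mean that a rise from turning or pink to red ripe was common on the array.

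**Figure D3:**
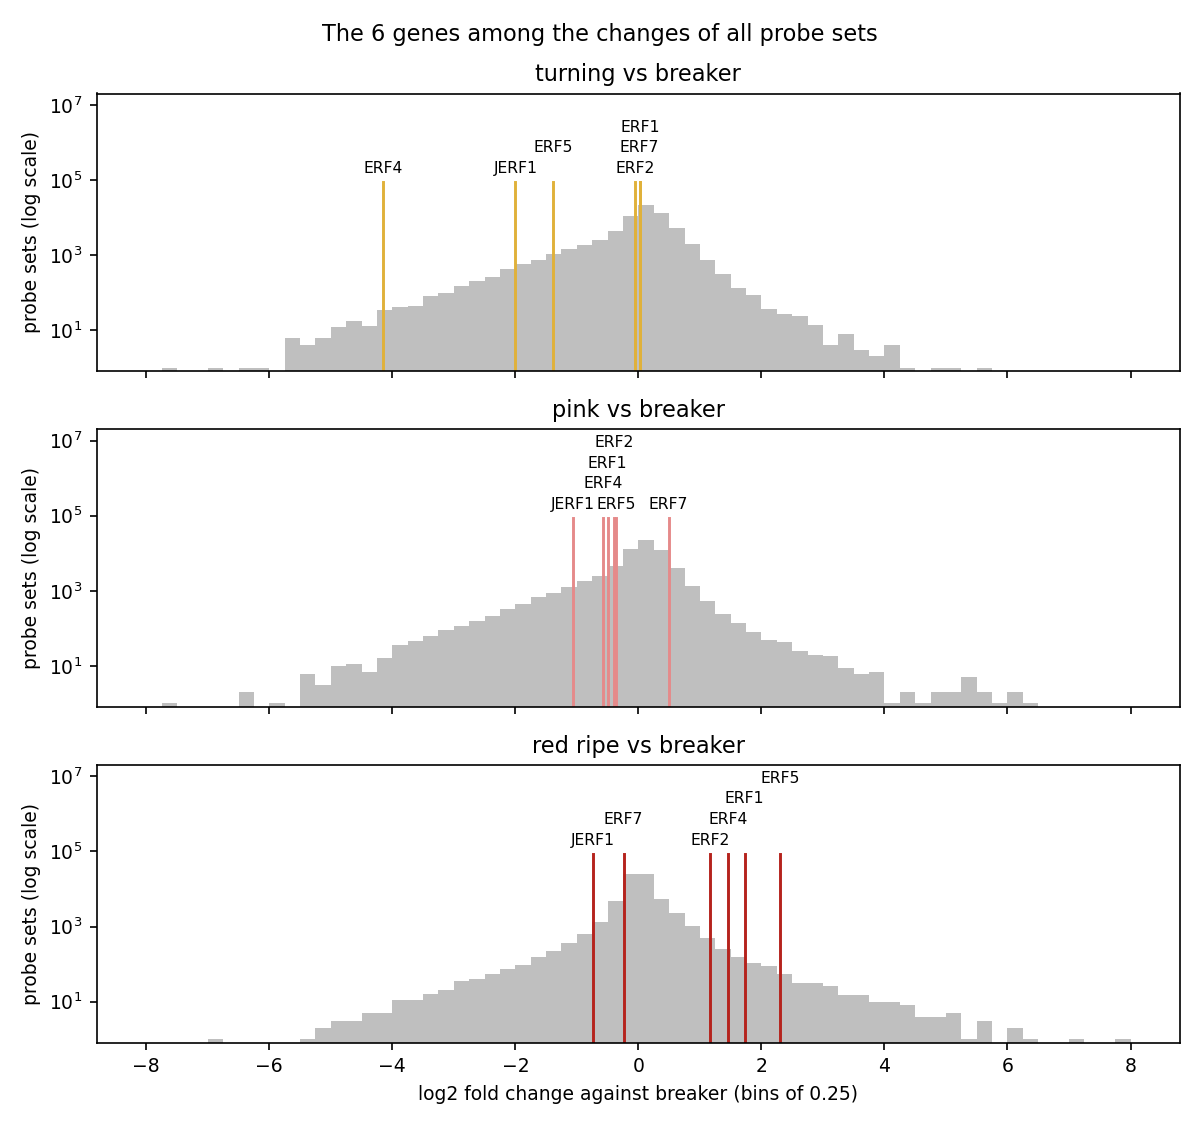
Grey bars count all 67795 probe sets by log2 fold change against breaker in bins of 0.25, on a logarithmic vertical axis, and the coloured lines mark the 6 genes. At turning the long left side of the bars holds ERF4, JERF1 and ERF5, and at red ripe 4 of the genes lie above 1.

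Within the family, the profiles of ERF1 and ERF2 lay closest and those of ERF4 and ERF7 farthest apart. After each gene was centred on its own mean, the root mean square difference over the 9 arrays was 0.48 between ERF1 and ERF2, 0.78 between ERF1 and ERF5 and between ERF7 and JERF1, and 2.20 between ERF4 and ERF7. Within subclass B the difference between ERF4 and ERF5 was 1.19, and ERF5 was the nearest of the other members to ERF4, while ERF1 was nearest to ERF5. Within subclass E the difference between JERF1 and ERF2 was 0.83, and each had another member nearer to it. Among the other 23193 probe sets with 1 gene symbol, the profile most like ERF4 was that of 20ox-3, a gibberellin 20-oxidase, at a difference of 0.37, with a stage mean of 7.995 at breaker, of 3.36 at turning, of 7.27 at pink and of 9.02 at red ripe. LOC101256995 (0.49) and LOC101244961 (0.57) followed. For ERF5, the member with the next largest span, the closest were LOC101247995 (0.38), LOC101256055 (0.39) and LOC101260396 (0.39). These differences describe likeness on 9 arrays and carry no test. Profiles were not scaled, so a gene of large span such as ERF4 must lie far from one of small span such as ERF7. ERF1 was near the array medians before red ripe, which limits what its closeness to ERF2 shows.

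In the RefSeq order of genes on assembly SLM_r2.1, ERF4 is followed by DDTFR10A (ERF.B1) and PTI4 (ERF.A3), and ERF5 lies between ERF-B5 and ERF-A2, so both subclass B members sit in runs of ERF genes. ERF2 is separated by 1 protein-coding gene, LOC101265769, from the receptor gene ETR3. Of the 10 protein-coding genes directly next to the 5 located members, 6 had a probe set, a set formed after the values had been seen. Against breaker 3 of the 6 fell at turning and the same 3 at pink, where 16.5% and 13.5% of probe sets with 1 gene symbol fell. LOC101245256 beside ERF4 changed by -2.10 in turning and -1.71 in pink fruit (adjusted p = 4.82e-04 and 0.00155), LOC101265769 beside ERF2 by -1.23 and -1.26 (adjusted p = 0.0022 and 0.00226), and LOC101260239 beside JERF1 by -1.53 and -1.32 (adjusted p = 0.0213 and 0.0466). ERF4 fell at turning and JERF1 at both stages, and ERF2 was not past the test at either. At red ripe 1 neighbour rose, LOC101253198 beside JERF1 (1.91, adjusted p = 3.74e-04), where 3.54% of probe sets with 1 gene symbol rose.

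The genes that make and transmit ethylene moved as follows. Of 37 listed genes 27 were matched to a probe set, without the receptor NR, CTR1, ACS4, E4 and E8 among others. Against breaker 12 fell and 4 rose at turning, 10 fell and 3 rose at pink, and 1 fell and 3 rose at red ripe, with a median log2 fold change of -0.79, -0.80 and 0.27. Among all probe sets with 1 gene symbol, 16.5% fell and 1.28% rose at turning, 13.5% fell and 1.57% rose at pink, and 2.82% fell and 3.54% rose at red ripe. Their median was -0.11, -0.09 and 0.05, and the median over all probe sets was 0.12, 0.08 and 0.01. Of the 9 matched signalling genes between receptor and ERFs, 4 fell at turning, 5 fell at pink and none passed the test at red ripe in limma against breaker, a stage at which few probe sets on the array did. At an unadjusted p under 0.05, 2 of the 9 were higher and 2 lower at red ripe. EIN2, the membrane protein on which the signal converges, was lower than at breaker at turning (-2.42, adjusted p = 1.07e-04) and at pink (-3.10, adjusted p = 3.94e-05), and EIL3, of the factors that switch on ERF genes, fell by 2.98 at pink (adjusted p = 3.17e-05). Among the ERF genes, ERF4, ERF5 and JERF1 fell at turning and JERF1 at pink, and the others did not pass the test in these comparisons. Among 7 matched synthesis genes 3 fell at turning, with ACS1A lower by 2.81 (adjusted p = 2.84e-05), and at red ripe 1 fell and 1 rose, the ACC oxidase ACO5 (2.28, adjusted p = 0.00764). Among 6 matched genes listed with the receptors 3 fell and 1 rose at turning, including ETR4, which fell by 2.21 (adjusted p = 1.50e-04), and none passed the test at red ripe, with 1 higher and 1 lower at an unadjusted p under 0.05. GR, 1 of the 3 that fell at turning (-1.25), was matched by its symbol alone. Which gene its probe set reads was not checked. It may stand for a gene outside the ethylene pathway, and the pathway counts include it. Of 5 matched ethylene-responsive targets 3 rose and 2 fell at turning, the expansin EXP1 among those that fell (-3.14, adjusted p = 1.93e-04). The turning means of ACS1A (1.345) and EXP1 (1.58) lay below the array medians, so both falls are at best lower bounds. At pink 2 targets rose and 1 fell, with the cellulase gene CEL2 higher by 3.86 (adjusted p = 2.05e-05). At red ripe 2 targets rose, CEL2 by 4.24 and the polygalacturonase gene PG2 by 2.03 (adjusted p = 1.03e-05 and 1.59e-04). Whether a pathway gene and an ERF gene differed in their changes was not tested.

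**Figure D4:**
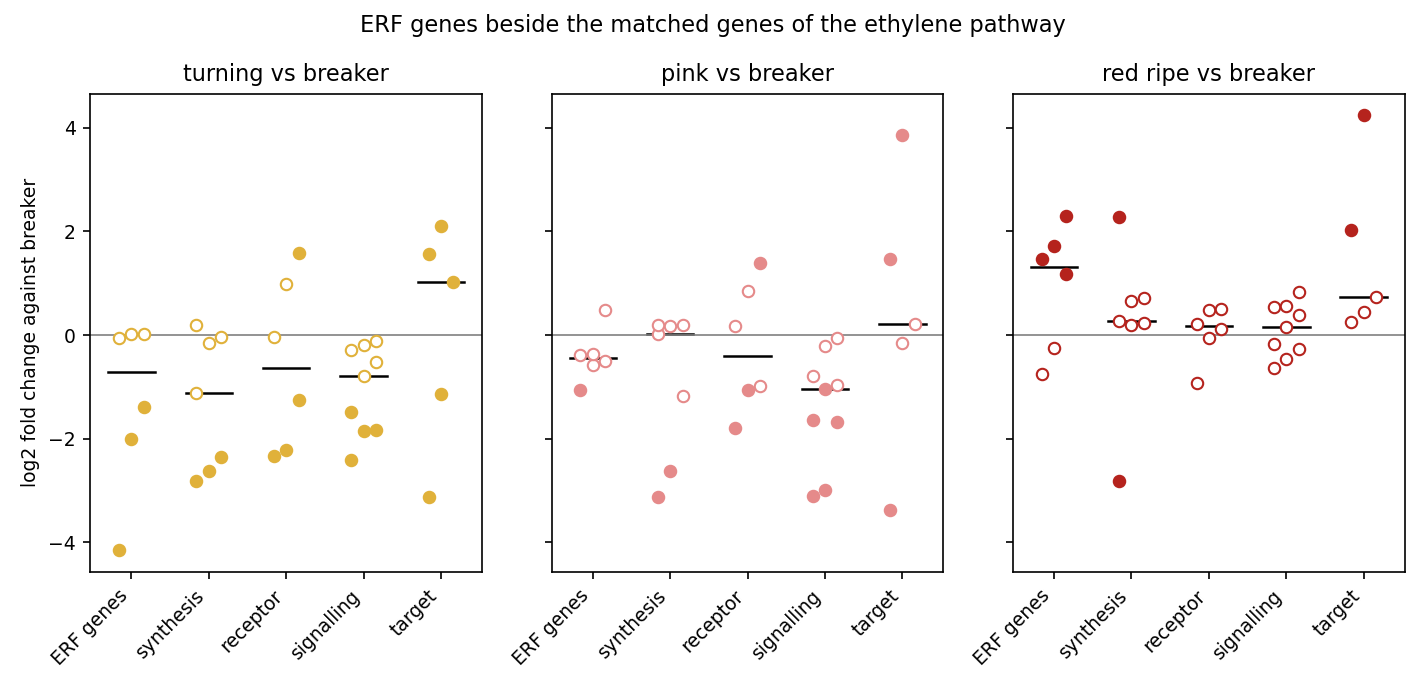
The vertical axis is the log2 fold change against breaker at each later stage, for the 6 ERF genes and the matched ethylene genes. These are genes of synthesis (7), of the receptor list including GR (6), of signalling (9) and of targets (5). Each point is a gene, filled when past the test, and the black line is the group median. At red ripe 4 ERF genes, 2 synthesis genes, 2 targets and none of the receptor and signalling genes are filled.

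Genes of the DREB and CBF group, which belong to the same AP2/ERF superfamily and are known from responses to cold and drought, were looked at after the values had been seen. 4 of 6 were matched, and RefSeq lists DREB1 and DREB3 also under ERF names of subclass H. CBF1 had signals of 5.05 to 6.56 at red ripe and of 1.80 to 2.52 on the 6 earlier arrays. It rose by 3.84 against breaker (standard error 0.37, adjusted p = 6.49e-04), at best a lower bound. DREB3 had a stage mean of 5.66 at red ripe and 4.44 at breaker and was not past the test in that comparison (1.22, adjusted p = 0.0728), but was 1.91 above turning and 1.48 above pink (adjusted p = 0.00251 and 0.0117). DREB1 and DREB2 passed the test in none of the 6 comparisons, with stage means of 3.30 to 3.71 and 1.56 to 2.35.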

How the data were processed

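RNA of 9 fruit samples at 4 stages was hybridized to 1 array each. The deposited values are log2 signals per probe set, made by the authors with RMA in Expression Console of Affymetrix. RMA is a method of background correction, quantile normalization and probe summary. The deposited values nevertheless do not share 1 distribution across arrays. Their 90th percentile was 4.17 on turning replicate 1 and 5.43 on red ripe replicate 1. Transcriptome Analysis Console 2.0 also stands in the submitters' processing notes. The genome build of the array design is not given in the sources used here, so no coordinates are printed. All 9 columns and all 67795 probe sets were used without further normalization or filter, and raw intensities were not used here. limma 3.58.1 in R 4.3.3 (lmFit, eBayes without trend, 5 residual and 3.65 prior degrees of freedom) gave 6 comparisons of stages. A log2 change of exactly 1 was not counted as over 2-fold. The fit was checked on simulated data with the same spread at all stages, which does not test the noisier turning and pink arrays. Genes were named from the array's annotation, and of 23194 probe sets with 1 symbol 23098 were found by symbol in RefSeq (assembly SLM_r2.1).

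All members of the family are named, with up to 4 called pathway genes of smallest adjusted p per comparison and the 3 genes of nearest profile to ERF4 and ERF5. The neighbouring genes and the DREB and CBF genes were added. Members and lists were chosen with earlier results of these data known. As alternatives, results were recomputed with a replicate block, with every array left out in turn, and with median centring, quantile normalization, removal of the probe sets of lowest mean signal, array weights, only the 2 stages compared, an unadjusted p, no fold threshold, the t-test of the methods on each probe set, and the mean of all probe sets of a gene.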

Additional observations from a re-analysis of the deposited data

How the results depend on the processing

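Over 20 alternative settings, the calls of ERF4 and JERF1 at turning against breaker were lost with 1 setting, the methods' t-test after Benjamini-Hochberg adjustment. With that test the number of ERF genes called was 0 for turning, pink and red ripe against breaker and for pink against turning. It was 3 for red ripe against turning and 3 for red ripe against pink. The number of pathway genes called was 0, 0 and 1 for turning, pink and red ripe against breaker. At the thresholds of the methods, an unadjusted p with the fold change, the same test called 2, 1 and 4 ERF genes at turning, pink and red ripe against breaker. Quantile normalization gave 0 for pink against breaker, 2 for red ripe against breaker and 3 for red ripe against turning. For pink against turning the number was 0 with array weights, 2 with an unadjusted p in limma and 2 without a fold threshold. With 1 array left out, against breaker it lay between 2 and 3 for turning, 0 and 2 for pink, and 1 and 4 for red ripe. For pink against turning it lay between 1 and 2, and it was 5 and 4 for red ripe against turning and pink. The number of pathway genes called against breaker then lay between 12 and 17 for turning, 9 and 14 for pink, and was 4 for red ripe. Where leaving out an array left a stage with 1 sample, that sample was assumed to vary like the others.

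The changes that turned in sign under some setting were not past the test as deposited or where they turned. ERF1 at turning was -0.14 after median centring, -0.0689 after quantile normalization, -0.025 with the mean of its probe sets and -0.44 to 0.49 with 1 array left out. ERF2 at turning was 0.17 after quantile normalization and -0.32 to 0.21 with 1 array left out, ERF5 at pink was 0.065 after quantile normalization, ERF4 at pink was -1.17 to 0.03 with 1 array left out, and ERF7 at turning was -0.145 after median centring and -0.065 to 0.105 with 1 array left out. Median centring moved the median of all probe sets at turning to -0.05, against 0.12 as deposited. Of the probe sets called at turning, pink and red ripe against breaker, 82.3%, 81.6% and 45.5% were lower, and 61.0%, 60.4% and 55.6% after quantile normalization. Of those called at red ripe against turning and pink 17.3% and 14.5% were lower, and 40.7% and 39.3% after quantile normalization.

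The labels give each stage replicates 1 and 2, but no source says that a number marks a shared day or batch, and differences between replicates correlated across stages with r of -0.0003 to 0.0703. With the replicate number as a block, 3 ERF genes rose at red ripe against breaker in place of 4, ERF4 having an adjusted p of 0.0600, and the block changed no other call of the 6 genes. Signals near the array medians limit ERF1 at breaker, turning and pink, and ERF4 and ERF5 at turning.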
